A study of Rattus norvegicus with 24 samples.

Results

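The immediate early transcription factor genes Egr1, Egr2, Fos, Fosb, Fosl1, Jun, Junb, Ier2, Ier3 and Maff were followed in blood mononuclear cells of rats. Members were the probe sets whose only gene symbol in the annotation of the Affymetrix rat genome array used was one of these, which gave 10 of 14218 genes on 14 probe sets. A probe set is a group of array probes read as 1 value, and the values are log2 levels, so a difference of 1 is a doubling. Of the 14 probe sets 13 passed the filter on dim signal (in 2 or more arrays over the 40th percentile of all values there), and the dimmer probe set of Egr2 did not. Egr2 has 2 probe sets, Fos 2, Jun 3 and the other genes 1, and the brightest one of each gene is its main probe set.

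Immediate early genes are switched on within minutes of a stimulus, without new protein synthesis, by factors that already sit in the cell, such as SRF with its partners and CREB. Fos, Fosb and Fosl1 encode partners of the Jun proteins in the dimeric AP-1 factors, and Egr1 and Egr2 encode zinc finger factors. Maff encodes a small Maf protein, which binds DNA without an activation domain of its own, and Ier2 a nuclear regulator of transcription. Ier3 is named with them but encodes a regulator of survival and NF-kB signalling and not a DNA-binding factor. In leukocytes these genes respond to receptor activation, stress and handling of the cells.

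The study asked how a needle-based mechanical stimulation acts in collagen-induced arthritis, an arthritis raised in rats by injecting bovine type II collagen in Freund's adjuvant with a booster. Female Wistar rats, of an age not given in the sources used here, were bled once at sacrifice, so each of the 24 arrays is a separate rat and each of the 12 groups holds 2. NOCIA rats were healthy and untreated (NORA in the labels). They were taken at baseline, at 1 h and at 34 days. CIA rats had arthritis (RA in the labels) and were taken at baseline, before any therapy. MS (AP in the labels, puncture and twirling of a needle), MTX (weekly intraperitoneal methotrexate), PLA (saline by the same route and schedule) and ANE (no therapy, isoflurane at blood sampling in place of ether) were arthritic rats taken at 1 h and at 34 days after therapy began. The anaesthetic of NOCIA and of the CIA baseline is not given in the sources used here. CIA is a model raised by immunisation, and the cells were a mixed Ficoll fraction of blood.

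Changes are log2 differences ± SE from limma, a linear model fitted over all 24 arrays with n = 2 arrays in a group, and a call means an adjusted p under 0.05 (Benjamini-Hochberg, over the 20690 probe sets tested). The 4 arthritic arms were all set against the same 2 CIA baseline arrays, so their changes are not independent. With 2 arrays against 2, the smallest two-sided p of an exact permutation test is 0.333, so the tests rest on the spread pooled over groups. Array values are given as rep 1 and rep 2, which have no order.

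The start regions of some of these genes carry the sites through which they are known to be induced, and they are shown for that reason. RefSeq promoter windows (build GRCr8, 250 bases before to 50 after the transcript start) matched 7 of the 10 genes, and those of Fos, Jun and Ier3 were not used here. The SRF site known as the CArG box was found in Egr1, with matches 105 and 83 bases before the start, and in Egr2, with a match 83 bases before it. It occurs in 1.64% of all 33469 promoter windows of the same length. The 150 bases before the start are printed below 5' to 3' with the CArG boxes in capitals, for Egr1 at chr18:26736928-26737077 (plus strand) and for Egr2 at chr20:21054442-21054591 (minus strand).
Egr1: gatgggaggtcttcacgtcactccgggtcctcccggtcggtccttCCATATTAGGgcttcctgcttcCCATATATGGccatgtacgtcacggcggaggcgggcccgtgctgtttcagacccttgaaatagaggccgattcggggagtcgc
Egr2: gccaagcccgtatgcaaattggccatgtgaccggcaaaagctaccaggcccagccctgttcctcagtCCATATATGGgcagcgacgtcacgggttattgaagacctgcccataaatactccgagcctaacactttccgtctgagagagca

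The CREB site (CRE, TGACGTCA) was found in Ier2, 66 bases before the start, and in Maff, 51 bases before it, and in 1.83% of all windows. Maff also holds the zinc finger site GCGTGGGCG that Egr proteins bind, 110 bases before its start, found in 0.544% of windows. The 150 bases before the start are shown with these sites in capitals, for Ier2 at chr19:40399223-40399372 (plus strand) and for Maff at chr7:112792637-112792786 (plus strand).
Ier2: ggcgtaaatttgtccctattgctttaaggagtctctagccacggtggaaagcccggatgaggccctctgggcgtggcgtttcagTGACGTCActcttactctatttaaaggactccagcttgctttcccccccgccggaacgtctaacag
Maff: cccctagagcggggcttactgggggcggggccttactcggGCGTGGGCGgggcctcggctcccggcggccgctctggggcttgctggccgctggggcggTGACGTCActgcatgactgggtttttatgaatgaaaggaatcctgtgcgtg

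The CRE core TGACG, which lies inside the full CRE, was found alone in Egr1, Egr2, Fosl1 and Junb and occurs in 21.2% of windows. The AP-1 site TGANTCA was found in none of the 7 windows and in 7.33% of all. Both strands were searched, and a match is a description of the letters and not of binding.

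**Figure D1:**
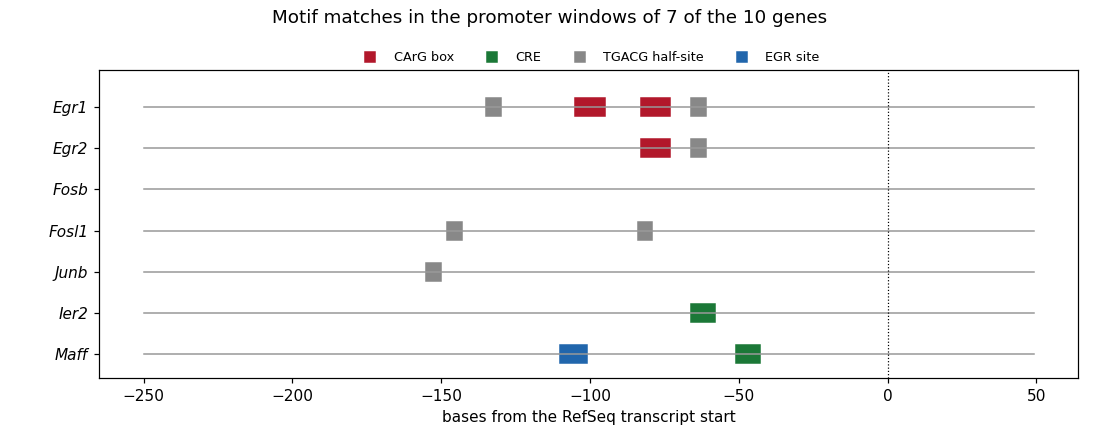
Positions of motif matches (coloured boxes) along the promoter windows of 7 genes (rows), in bases from the RefSeq transcript start (dotted line). CArG boxes appear in Egr1 and Egr2, CREs in Ier2 and Maff, the Egr site in Maff, and none of the motifs in Fosb.

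Levels spanned a wide range. Over the 24 arrays the main probe set of Fos had a median log2 level of 11.17 (9.05 to 12.67), Ier2 10.77 (8.90 to 11.70), Junb 10.15 (8.63 to 11.07), Jun 10.03 (8.93 to 11.41) and Egr1 8.98 (7.05 to 10.91). Fosb lay at 8.26 (6.26 to 9.23) and Ier3 at 7.40 (5.65 to 8.87). Maff (median 5.54), Fosl1 (5.04) and Egr2 (4.59) were dim. Levels of different probe sets are not comparable as amounts of RNA, because probes differ in how well they bind.

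Platelet, monocyte, T cell, B cell, NK cell, neutrophil and erythroid markers were detected, with 7 of 9 neutrophil markers, 13 of 14 T cell markers and all measured markers of the other types above the median of the arrays. For 13 measured platelet markers of 15 (among them Pf4 and Itga2b) the mean level, centred on 0 over the arrays, was 1.36 and 0.49 in MS at 34 days against -0.50 and -0.70 at the CIA baseline. It was also high in 1 array each of MS at 1 h (1.19), PLA at 1 h (1.03) and ANE at 1 h (0.95), and these with MS 34-day rep 1 are the 4 arrays that stand apart. Over all probe sets, the 2 arrays of a group differed with an SD that ran from 0.230 in NOCIA at baseline to 0.876 in MS at 1 h, and was 0.836 in MS at 34 days. MS 34-day rep 1 held the lowest value of Egr1, Fos, Fosb, Junb and Ier2 of all arrays. In a mixed cell fraction, fewer cells of a type and less RNA per cell cannot be told apart.

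**Figure D2:**
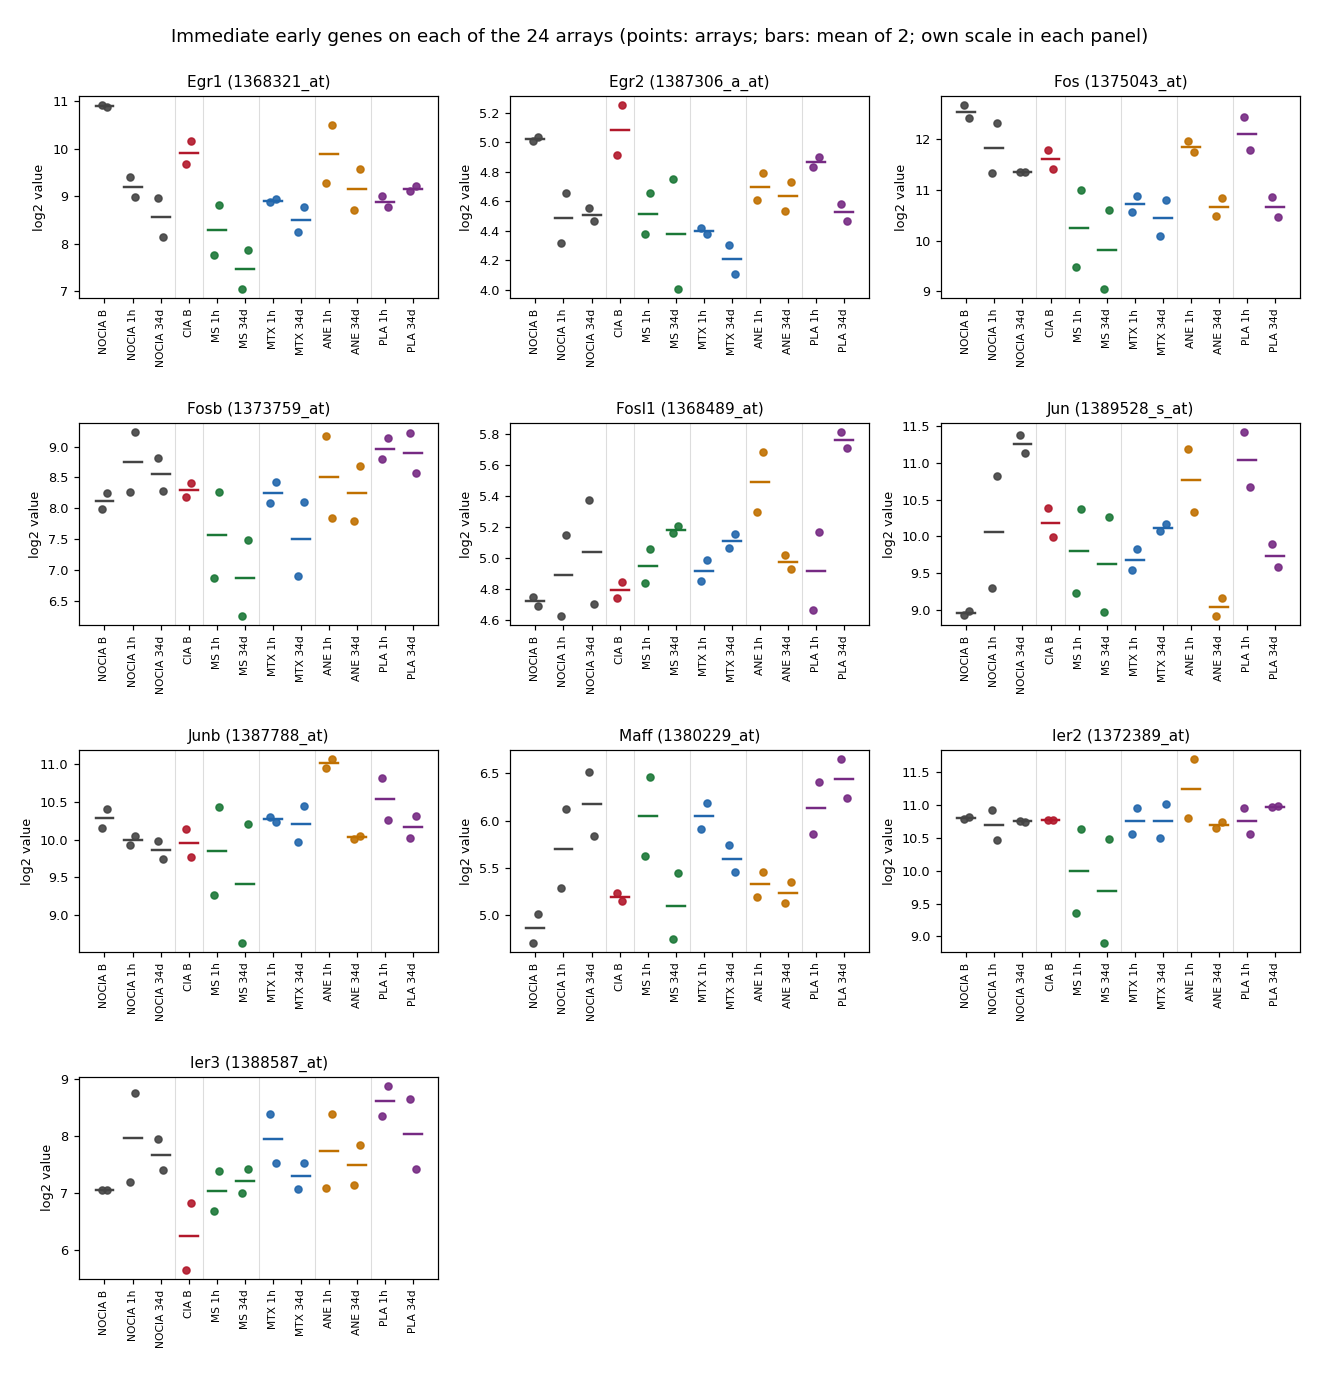
Log2 level (vertical axes, a scale of its own in each panel) of the 10 genes on their main probe sets in the 12 groups (horizontal axis). Points are arrays and bars the mean of 2. Egr1 and Fos are highest in NOCIA at baseline and lowest in MS at 34 days, and Jun is highest in NOCIA at 34 days.

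Among the 12 groups, limma's F test for any difference called 2 of the 13 probe sets, Egr1 (adjusted p = 0.0193) and the main probe set of Fos (0.0472), where 2.26% of all probe sets were called. Maff (0.0871) and Jun (0.0987 on its main probe set) were not called. Egr1 group means ran from 10.89 in NOCIA at baseline to 7.46 in MS at 34 days. Of the 11 steps between neighbours in that order 1 had arrays that did not overlap, NOCIA over CIA at baseline. For Fos the order ran from 12.55 to 9.83 between the same 2 groups, with 2 such steps. Jun ran from 11.25 in NOCIA at 34 days to 8.97 in NOCIA at baseline, and Ier3 from 8.60 in PLA at 1 h to 6.23 in CIA at baseline, with 0 such steps in either. How many such steps are usual over all probe sets was not computed, so these counts do not set the genes apart. Both calls of the F test were lost without NOCIA baseline rep 1, NOCIA baseline rep 2 or NOCIA 34-day rep 1. More of the 13 were called without MS 34-day rep 2. The share of all probe sets called in these fits was not computed. Without the filter, with arrays centred on their medians or with limma-trend the F test called Egr1 alone.

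Arthritis alone was read from the baseline, CIA against NOCIA. Egr1 lay at 9.68 and 10.15 in CIA and at 10.91 and 10.87 in NOCIA, a difference of -0.97 ± 0.43. Jun lay the other way, at 10.39 and 9.99 in CIA against 8.94 and 8.99 in NOCIA, a difference of 1.22 ± 0.49. Fos was at 11.80 and 11.43 against 12.67 and 12.43, and Ier2 was level, at 10.78 in both CIA arrays against 10.78 and 10.82. The arrays of both groups did not overlap for Egr1, Fos or Jun. limma called 0 of the 13 probe sets (0.00483% of all), and 3 were at an unadjusted p under 0.05 (3.81% of all), namely Egr1 and 2 probe sets of Jun. Groups did not overlap for 9 of the 13 against 51.7% of all. The median change of the 10 genes was 0.02, beside 0.01 over all probe sets.

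Healthy rats were the group in which most calls were made over time. Between baseline and 34 days without treatment, Egr1 fell and Jun and Maff rose. Egr1 was at 10.91 and 10.87 at baseline, 9.40 and 8.98 at 1 h and 8.97 and 8.15 at 34 days. Every later array lay below both baseline arrays, and the fall to 34 days was by 2.33 ± 0.43, or 5.03-fold (adjusted p = 0.00306). It was called without any 1 of the 4 arrays (adjusted p from 0.0166 to 0.0430).

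Jun was at 8.94 and 8.99 at baseline, 9.30 and 10.81 at 1 h and 11.38 and 11.13 at 34 days, so that baseline and 34-day arrays were far apart and the 1 h arrays lay between them. Its main probe set rose by 2.29 ± 0.49, or 4.87-fold (adjusted p = 0.00686). The other probe sets of Jun, called here the middle one (1.48 ± 0.42, 0.0312) and the dimmest one (2.00 ± 0.46, 0.00992), rose too. They are 3 readings of 1 gene, and the main and the dimmest probe set were designed on the same transcript record. Maff was at 4.71 and 5.01 at baseline, 5.29 and 6.12 at 1 h and 6.52 and 5.83 at 34 days, a rise of 1.32 ± 0.34, or 2.49-fold (adjusted p = 0.0199).

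The calls of Jun and Maff turned on single arrays. The adjusted p of the main Jun probe set was 0.0539 without NOCIA baseline rep 1, 0.0530 without rep 2 and 0.0758 without NOCIA 34-day rep 1, and those of Maff were 0.145, 0.0755 and 0.241. On the dimmest Jun probe set they were 0.0788, 0.0565 and 0.123. The call of the middle one was lost without each of the 4 arrays, at 0.120, 0.173, 0.193 and, without NOCIA 34-day rep 2, 0.103. Differences kept their sign in each case.

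The main probe set of Fos was at 12.67 and 12.43 at the NOCIA baseline and 11.36 and 11.35 at 34 days, a difference of -1.19 ± 0.50 that was not called (adjusted p = 0.145). Fosb (0.42 ± 0.56), Junb (10.16 and 10.40 to 9.98 and 9.75) and Ier2 (10.78 and 10.82 to 10.77 and 10.74) were not called either. In all, 5 of 13 probe sets of 3 genes were called against 12% of all, 7 were at an unadjusted p under 0.05 against 24.3%, and groups did not overlap for 12 of 13 against 65.9%. The 10 genes were split, with 5 above 0 and 5 below, and a median of 0.14. Between the same groups the B cell marker level went from 0.86 and 0.88 to -0.77 and -0.69, the NK cell level from 0.45 and 0.34 to -1.13 and -0.77, and the platelet level from -0.37 and -0.18 to 0.02 and 0.17. The neutrophil level went from -0.36 and -0.61 to 0.23 and 0.31, and the T cell level from 0.40 and 0.46 to -0.12 and -0.35. The part of these cell markers in the changes was not tested.

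At 1 h in healthy rats Egr1 differed from baseline by -1.70 ± 0.43, Maff by 0.84 ± 0.34 and Jun by 1.09 ± 0.49. limma called 0 of the 13 (0.00483% of all), and 4 were at an unadjusted p under 0.05 (3.57% of all). From 1 h to 34 days the 3 Jun probe sets differed by 1.00 to 1.22. limma again called 0 (2.68% of all), with 3 at an unadjusted p under 0.05 (17.1% of all), all of them Jun. Without NOCIA 1 h rep 1, the lower Jun array of that pair, the 3 Jun probe sets differed by 0.19 to 0.59.

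**Figure D3:**
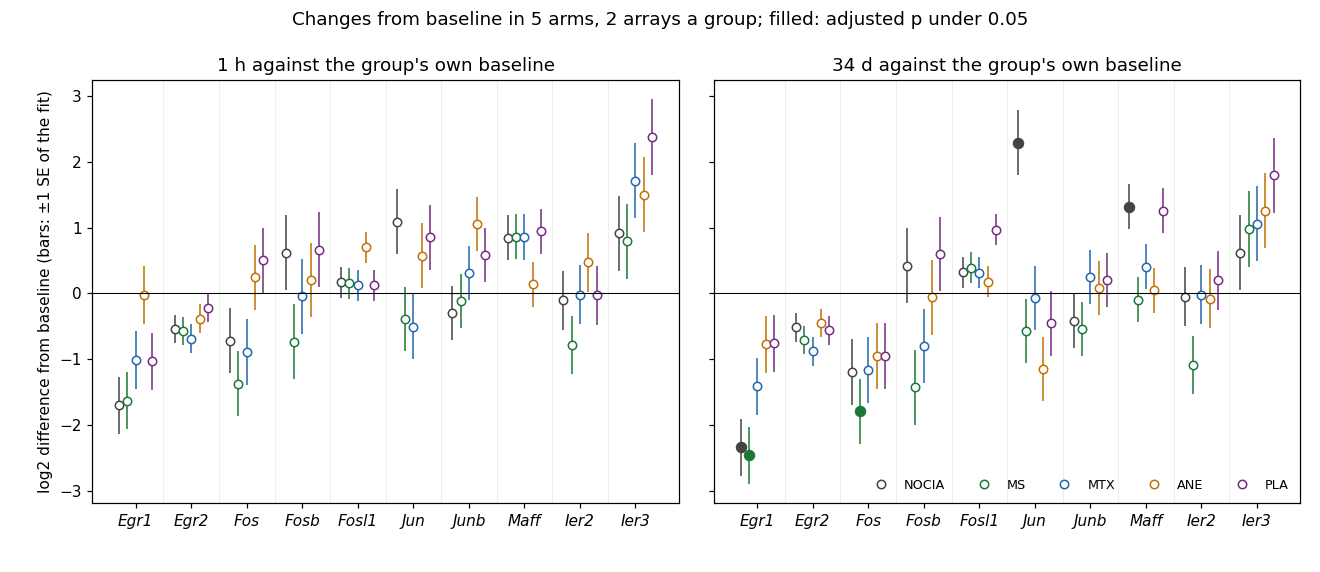
Log2 difference from baseline (vertical axis, bars ± 1 SE) of the 10 genes (horizontal axis) in 5 arms at 1 h (left) and 34 days (right). Filled points were called by limma, and they are Egr1, Jun and Maff in NOCIA and Egr1 and Fos in MS, all at 34 days.

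Mechanical stimulation for 34 days was set against the CIA baseline. Egr1 and Fos fell. Egr1 was at 9.68 and 10.15 at baseline and 7.05 and 7.87 after MS, a fall by 2.45 ± 0.43, or 5.48-fold (adjusted p = 0.0213). Fos was at 11.80 and 11.43 and then at 9.05 and 10.60, a fall by 1.79 ± 0.50, or 3.45-fold (adjusted p = 0.0461). Both MS arrays lay below both baseline arrays for each gene. Over the same time untreated healthy rats changed by -2.33 for Egr1 and -1.19 for Fos against their own baseline. The difference between the MS and NOCIA changes was called for neither gene. The dim second probe set of Fos differed by 0.60 in the other direction and was not called (adjusted p = 0.225).

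Fosb lay at 8.18 and 8.41 at the CIA baseline and 6.26 and 7.49 in MS, a difference of -1.42 ± 0.56 (adjusted p = 0.0912). Ier2 lay at 10.78 in both baseline arrays and at 8.90 and 10.49 in MS (-1.08 ± 0.45, 0.0995), and the dim Egr2 differed by -0.71 ± 0.22 (0.0554). None of these was called. Junb was at 8.63 and 10.20 in MS and Jun at 8.98 and 10.26, each with 1 array below both CIA baseline arrays and 1 array within or above their range. On the main probe sets the 2 MS arrays were further apart than the baseline arrays for every gene but Fosl1 and Ier3.

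Of the 13 probe sets 2 were called against 6.96% of all, 5 were at an unadjusted p under 0.05 against 37.1%, and groups did not overlap for 8 against 63.7%. Of the 10 genes 8 lay below 0 and 2 above, with a median of -0.64, while the median of all probe sets was itself -0.16 (-0.05 after quantile normalization). Relative to that median Egr1 and Fos still lay over 1 below. Both calls were lost without CIA baseline rep 1 (adjusted p = 0.177 for Egr1 and 0.204 for Fos), without rep 2 (0.169 and 0.188) and without MS 34-day rep 1 (0.308 and 0.583). Both were lost with array weights (0.200 for each) and in a fit of only these groups (0.342 for each), and that of Fos without the filter (0.0537). Without the MS rep 1 array the changes were -2.05 and -1.01. Without MS 34-day rep 2 instead they were -2.86 for Egr1 and -2.56 for Fos.

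The same MS rep 1 array stood apart in its cell markers. The T cell level was -1.46 in rep 1 and -0.11 in rep 2 (0.46 and 0.47 at the CIA baseline), the monocyte level -1.25 and 0.04 (0.19 and 0.28) and the platelet level 1.36 and 0.49 (-0.50 and -0.70). Other levels lay below both CIA baseline arrays in both MS arrays. The B cell level was -1.29 and -0.67 (0.27 and 0.32 at the CIA baseline). The NK cell level was -1.48 and -0.56 (0.46 and 0.55), and the neutrophil level -1.32 and -0.55 (-0.41 and -0.27). The part of all these markers in the fall of Egr1 and Fos was not tested. Without this array alone Egr1 differed by -2.05 and was not called (adjusted p = 0.308). Leaving out all 4 arrays that stand apart also leaves MS 34-day rep 2 alone. Egr1 then differed by the same amount, Fos by -1.01 and Egr2 by -1.08. That array is the lowest of all for the dim Egr2, and without it instead Egr2 differed by -0.33.

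**Figure D4:**
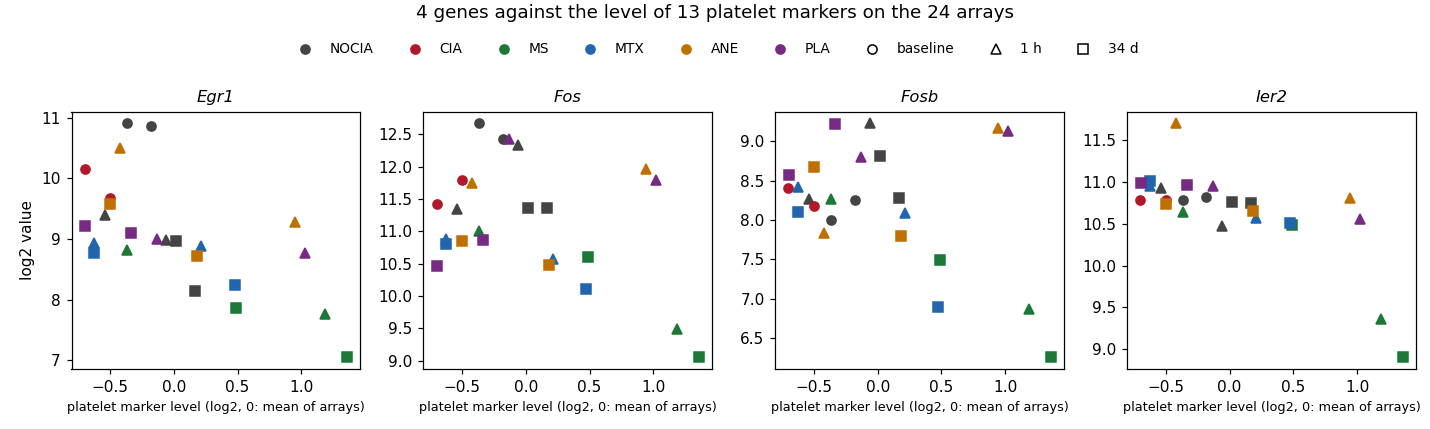
Log2 level of Egr1, Fos, Fosb and Ier2 (vertical axes) against the mean centred level of 13 platelet markers (horizontal axis) on the 24 arrays, coloured by arm and shaped by time. MS 34-day rep 1, at a platelet level of 1.36, is the lowest array for each of the 4 genes. Fos is at 9.49 in MS 1 h rep 1 (1.19), 11.79 in PLA 1 h rep 2 (1.03) and 11.97 in ANE 1 h rep 1 (0.95).

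At 1 h after MS the picture was similar in sign. Egr1 was at 7.76 and 8.82 and differed from the CIA baseline by -1.62 ± 0.43, and Fos by -1.37 ± 0.50. Maff, at 5.63 and 6.46 against 5.24 and 5.14, differed by 0.86 ± 0.34. limma called 0 of the 13 (0.00967% of all), with 4 at an unadjusted p under 0.05 (8.30% of all). MS 1 h rep 1, in which Fos was at 9.49 against 11.00 in rep 2, also stood apart in its cell markers. Its T cell level was -0.89 against 0.30 in rep 2, its monocyte level -0.999 against -0.11 and its platelet level 1.19 against -0.37, and their part in the values was not tested. Without MS 1 h rep 1 the differences were -1.09 for Egr1 and -0.61 for Fos, and without MS 1 h rep 2 they were -2.15 and -2.12. From 1 h to 34 days of MS limma called 0 (0% of all), with 1 at an unadjusted p under 0.05 (7.62% of all), Maff at -0.95 ± 0.34.

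Methotrexate, the standard drug of the study, gave no call. Egr1 was at 8.88 and 8.93 at 1 h and 8.24 and 8.77 at 34 days, with differences of -1.01 ± 0.43 and -1.41 ± 0.43. Both arrays lay below both CIA baseline arrays each time, as for 19.3% of all probe sets at 1 h and 30.3% at 34 days. The main probe set of Fos was at 10.10 and 10.80 at 34 days (-1.16 ± 0.50). Ier3, at 5.65 and 6.81 in the CIA baseline, was at 8.37 and 7.52 at 1 h (1.71 ± 0.57). limma called 0 of the 13 at 34 days (0% of all), with 3 at an unadjusted p under 0.05 (5.85% of all), Egr1, Egr2 and Fos. At 1 h it called 0 (0.0145% of all), with 4 at an unadjusted p under 0.05 (1.24% of all). Between 34 days and 1 h it called 0 (0% of all), and 0 were at an unadjusted p under 0.05 (5.38% of all).

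Arthritic rats without therapy under isoflurane (ANE) had the highest Junb group at 1 h, at 10.96 and 11.07 against 10.15 and 9.76 in the CIA baseline, a difference of 1.06 ± 0.41 that was not called (adjusted p = 0.428). Ier3 was at 7.07 and 8.39 (1.50 ± 0.57). Egr1 was at 9.28 and 10.49 and Ier2 at 10.80 and 11.70. The 2 arrays of this group had neutrophil marker levels of -1.40 and 2.02 and monocyte levels of -1.22 and 0.98, and the part of these in the values was not tested. At 1 h limma called 0 of the 13 (0.0338% of all), with 3 at an unadjusted p under 0.05 (10.8% of all).

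At 34 days of ANE the main Jun probe set was at 8.93 and 9.16 against 10.39 and 9.99 in the CIA baseline. These arrays did not overlap, as for 47.5% of all probe sets. limma called 0 of the 13 against the baseline (0% of all), with 3 at an unadjusted p under 0.05 (1.48% of all). These were 2 Jun probe sets, at -1.14 ± 0.49 and -1.06 ± 0.46, and Ier3 at 1.25 ± 0.57. From 1 h to 34 days all 10 genes lay below 0, with a median of -0.54 beside 0.03 over all probe sets. limma called 0 (0.0242% of all), and 6 were at an unadjusted p under 0.05 (4.56% of all), with the 3 Jun probe sets at -1.14 to -1.85, Fos at -1.19 ± 0.50, Junb at -0.98 ± 0.41 and Fosl1 at -0.52 ± 0.23. Without ANE 1 h rep 1, which stands apart, the 3 Jun probe sets differed by -1.21 to -1.42.

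The 34-day change of Jun in ANE differed from that in healthy rats. Jun rose by 2.29 in NOCIA and differed by -1.14 in ANE, a difference between the changes of -3.43 ± 0.69 on the main probe set (adjusted p = 0.0190) and of -3.06 ± 0.64 on the dimmest (0.0226). On the middle one it was -2.24 ± 0.60 and was not called (0.0562). These were 2 of 13 probe sets called against 2.86% of all, with 5 at an unadjusted p under 0.05 against 15.8%. The other genes among these were Egr1 at 1.56 ± 0.61 (adjusted p = 0.206) and Maff at -1.27 ± 0.48 (0.188). The NOCIA and CIA baselines enter this difference with opposite signs, and Jun was already 1.22 higher in CIA than in NOCIA at baseline. Cell markers moved with the difference too. The B cell level was 0.86 and 0.88 in NOCIA at baseline and -0.77 and -0.69 at 34 days, against 0.27 and 0.32 in CIA at baseline and 0.24 and 0.77 in ANE at 34 days. The NK cell level in ANE at 34 days was 0.09 and -0.13 against 0.46 and 0.55 in CIA at baseline, a smaller step than in NOCIA. The part of these markers in the difference was not tested.

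Both Jun calls were lost without NOCIA baseline rep 1 (adjusted p = 0.0735 on the main probe set and 0.0920 on the dimmest), NOCIA baseline rep 2 (0.0858 and 0.0858), CIA baseline rep 1 (0.0937 and 0.102) or CIA baseline rep 2 (0.0694 and 0.0757). They were also lost without NOCIA 34-day rep 1 (0.108 and 0.140), ANE 34-day rep 1 (0.0829 and 0.0795) or ANE 34-day rep 2 (0.0526 and 0.0727). They were kept without NOCIA 34-day rep 2 (0.0443 and 0.0391).

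**Figure D5:**
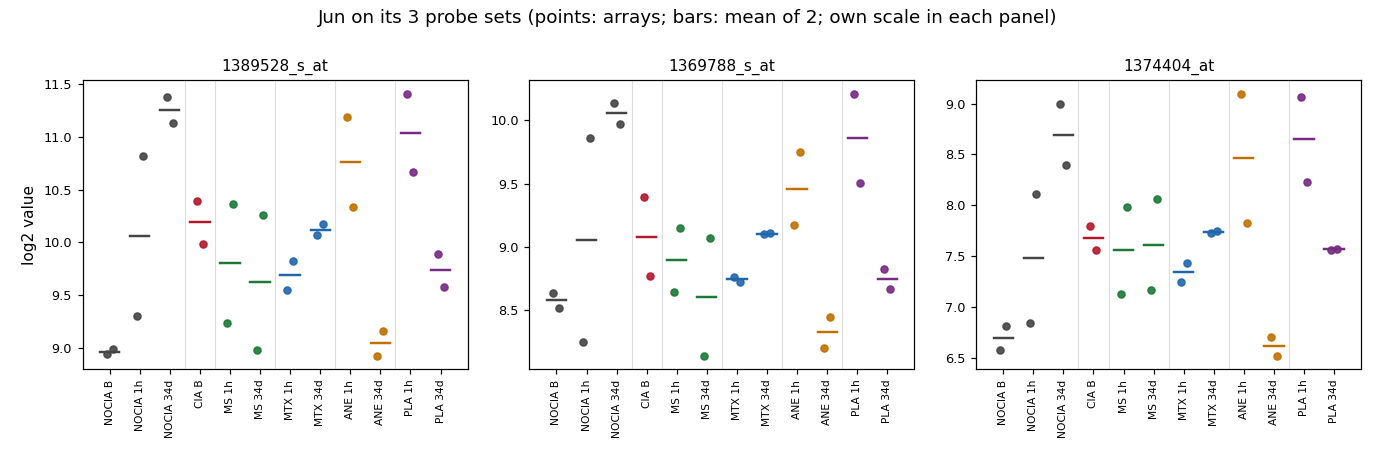
Log2 level of Jun (vertical axes, a scale of its own in each panel) on its main (left), middle (centre) and dimmest (right) probe set in the 12 groups (horizontal axis). Points are arrays and bars the mean of 2. On each probe set NOCIA at 34 days is the highest group, and ANE at 34 days lies near the NOCIA baseline.

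In the other arms the same difference in the change of Jun was in the same direction and was not called. On the main probe set it was -2.85 ± 0.69 in MS (adjusted p = 0.109), -2.35 ± 0.69 in MTX (0.364) and -2.74 ± 0.69 in PLA (0.176). All of these share the 4 baseline arrays and the NOCIA 34-day arrays. For MS limma called 0 of the 13 (0.0338% of all), with 5 at an unadjusted p under 0.05 (19.9% of all). Without MS 34-day rep 1 the main Jun probe set differed by -2.21. For MTX limma called 0 (0.0242% of all), with 3 at an unadjusted p under 0.05 (7.50% of all). For PLA it called 0 (0.00967% of all), with 4 at an unadjusted p under 0.05 (9.80% of all), the 3 Jun probe sets and Egr1 at 1.57 ± 0.61 (adjusted p = 0.376).

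Saline injection (PLA) held the highest group means of Ier3, at 1 h, and of Maff, at 34 days. Ier3 was at 8.34 and 8.87 at 1 h and 8.64 and 7.41 at 34 days, against 5.65 and 6.81 in the CIA baseline, with differences of 2.37 ± 0.57 and 1.79 ± 0.57. CIA baseline rep 1 was the lowest of all arrays for Ier3. Maff was at 6.65 and 6.24 at 34 days against 5.24 and 5.14 (1.25 ± 0.34), and the dim Fosl1 at 5.81 and 5.71 against 4.74 and 4.85 (0.97 ± 0.23). At 34 days the arrays did not overlap for these 3 genes, as for 55.8% of all probe sets, and none was called.

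At 1 h of PLA limma called 0 of the 13 (0% of all), with 4 at an unadjusted p under 0.05 (6.89% of all). At 34 days it called 0 (0% of all), with 4 at an unadjusted p under 0.05 (4.85% of all). Between 34 days and 1 h it called 0 (0% of all), with 5 at an unadjusted p under 0.05 (2.10% of all). These last were the 3 Jun probe sets, at -1.08 to -1.30, Fos at -1.45 ± 0.50 and Fosl1 at 0.85 ± 0.23. Fos was at 12.43 and 11.79 at 1 h and 10.87 and 10.47 at 34 days, and Jun at 11.41 and 10.66 and then 9.89 and 9.58. The arrays of these 2 genes did not overlap, as for 38.8% of all probe sets.

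Arms were also compared directly at 34 days. MS lay below PLA on the main probe set of all 10 genes, with a median of -0.83 beside -0.15 over all probe sets. Fosb was at 6.26 and 7.49 in MS and 9.21 and 8.57 in PLA (-2.02 ± 0.56), Egr1 differed by -1.70 ± 0.43, Maff by -1.35 ± 0.34 and Ier2 by -1.28 ± 0.45, each with an adjusted p of 0.179. limma called 0 of the 13 (0% of all), with 5 at an unadjusted p under 0.05 (23.2% of all). Without MS 34-day rep 1, the array that stood apart, 0 were called and the differences were -1.40 for Fosb, -1.29 for Egr1 and -0.49 for Ier2. Without MS 34-day rep 2, whose values were the less extreme, they were -2.63 for Fosb, -2.11 for Egr1 and -2.07 for Ier2.

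MTX against PLA gave 0 calls of 13 (0% of all) and 3 at an unadjusted p under 0.05 (0.739% of all), Fosb at -1.39 ± 0.56, Maff at -0.85 ± 0.34 and Fosl1 at -0.65 ± 0.23. ANE against PLA gave 0 calls (0% of all) and 2 at an unadjusted p under 0.05 (3.07% of all), Maff at -1.21 ± 0.34 and Fosl1 at -0.79 ± 0.23. MS against MTX gave 0 calls (0% of all) and 2 at an unadjusted p under 0.05 (14.4% of all), Egr1 at -1.05 ± 0.43 and Ier2 at -1.06 ± 0.45. Without MS 34-day rep 1, the array that stood apart, MS against MTX differed by -0.64 for Egr1 and -0.27 for Ier2, with 0 called and 0 at an unadjusted p under 0.05. Without MS 34-day rep 2 the differences were -1.46 for Egr1 and -1.85 for Ier2. The PLA arrays enter 3 of these comparisons.

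Other immediate early transcription factors were described on a list of 21 genes, of which 20 were measured. In healthy rats at 34 days 4 of the 20 rose and 0 fell, where 6.31% of all probe sets were called higher and 5.66% lower, with a median of 0.51 beside -0.02 over all probe sets. These were Ier5, a relative of Ier2 (1.54 ± 0.29, adjusted p = 0.00307), Mafk, a small Maf like Maff (1.00 ± 0.22, 0.00809), Fosl2, a Fos family member (1.38 ± 0.33, 0.0134), and Crem, a CREB relative (1.51 ± 0.40, 0.0223). The median in MS at 34 days was -0.61 beside -0.16, with 0 called against 6.96% of all. In the difference between ANE and NOCIA changes Mafk (-1.29 ± 0.31, adjusted p = 0.0380) and Crem (-2.27 ± 0.57, 0.0455) were called, both lower in ANE, against 1.99% of all called lower.

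Among 20 measured of 24 other early response genes, Ccn2, a secreted matricellular protein, and Gadd45b, a stress-response regulator, rose in healthy rats at 34 days, 2 of 20 against 6.31% of all called higher. Ccn2 was at 4.50 and 4.29 at baseline and 8.29 and 8.36 at 34 days (3.93 ± 0.66, adjusted p = 0.00167), with no overlap (65.9% of all probe sets). Gadd45b was at 8.33 and 8.18 and then 10.99 and 10.76 (2.62 ± 0.47, 0.00232). The median of the 20 was 0.45 there, beside -0.02 over all probe sets. It was -0.46 in MS at 34 days, beside -0.16, where 0 were called against 6.96% of all. Gadd45b was also higher than the CIA baseline at 34 days, by 1.08 in MS, 1.88 in MTX, 1.38 in ANE and 2.26 in PLA. At 1 h it was higher in every arm, by 1.40 in NOCIA to 2.27 in PLA. Ccn2 was higher in PLA, by 1.80 at 34 days and 1.59 at 1 h. None of these differences was called.

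Of 14 measured of 17 upstream genes, which encode kinases and the SRF and CREB factors that act on these promoters, 3 fell and 0 rose in healthy rats at 34 days, against 5.66% of all called lower and 6.31% higher. Rps6ka3, the kinase RSK2 downstream of ERK, was at 9.18 and 9.07 at baseline and 6.24 and 6.23 at 34 days, a fall by 2.90 ± 0.33 (adjusted p = 0.000223). Mapk14, the stress kinase p38 alpha, fell by 0.89 ± 0.18 (0.00546) and Creb1, which encodes CREB, by 1.38 ± 0.39 (0.0312). In MS at 34 days Rps6ka3 fell by 2.01 ± 0.33 (0.0186) and Elk3, an SRF partner, by 1.35 ± 0.37 (0.0460), 2 of 14 against 5.44% of all called lower. The change of Rps6ka3 in ANE differed from that in NOCIA by 2.77 ± 0.47 (0.00993), where 0.870% of all were called higher.

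Of 9 measured of 11 partners and repressors, Atf2, a partner of Jun, rose in healthy rats at 34 days (1.06 ± 0.25, adjusted p = 0.0126), 1 of 9 against 6.31% of all called higher. Of 9 measured of 12 genes known as AP-1 or Egr targets, 0 were called at 34 days against baseline in any arm. In MTX, ANE and PLA 0% of all probe sets were called then, so 0 calls there do not set the targets apart. In MS 6.96% of all were called, and in NOCIA 6.31% were called higher and 5.66% lower. At 1 h Tnf, an inflammatory cytokine, was called higher in MTX (4.99 ± 0.75, adjusted p = 0.0447, with 0.0145% of all called higher). It was also higher at 1 h in MS (3.86), ANE (2.09), PLA (2.05) and untreated NOCIA (2.37), and was called in none of these. Mmp9, a protease stored in neutrophils, rose in ANE at 1 h (2.27 ± 0.28, adjusted p = 0.00277, with 0.0338% of all called higher). The medians of the target list at 34 days were -0.18 in MS, 0.52 in MTX, 1.16 in ANE and 1.49 in PLA. Higher in PLA were Ptgs2, the inducible prostaglandin synthase (2.50 ± 0.95), Il1b, an inflammatory cytokine (3.52 ± 1.04), and F3, tissue factor (3.04 ± 0.75). None of these was called, in a comparison where 0% of all were.

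With each array left out in turn, the calls of Gadd45b, Ccn2 and Rps6ka3 in NOCIA at 34 days against baseline were kept each time (highest adjusted p = 0.0365, 0.0250 and 0.00537). Against NOCIA at 1 h, Ccn2 (2.86 ± 0.66, adjusted p = 0.0343) and Rps6ka3 (-2.09 ± 0.33, 0.00840) were called at 34 days as well, and these calls reached 0.296 without NOCIA 1 h rep 1 and 0.145 without NOCIA 34-day rep 1. The calls of the other list genes were lost without at least 1 array, and the array that gave the highest adjusted p is named. Those of NOCIA at 34 days against baseline reached 0.0524 for Ier5, 0.0875 for Mafk, 0.194 for Crem, 0.289 for Creb1 and 0.112 for Atf2 without NOCIA 34-day rep 1. They reached 0.127 for Fosl2 without NOCIA baseline rep 1 and 0.0679 for Mapk14 without NOCIA baseline rep 2. Those of MS reached 0.266 for Rps6ka3 and 0.575 for Elk3 without MS 34-day rep 1. Those of the difference between ANE and NOCIA reached 0.0679 for Rps6ka3, 0.175 for Mafk and 0.206 for Crem without NOCIA 34-day rep 1. Tnf reached 0.778 without CIA baseline rep 2, and Mmp9 0.108 without CIA baseline rep 1.

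Genes with the most similar pattern were taken as the 5 with the highest Pearson correlation over the 24 arrays among 11047 genes, which share arrays and so also their cell makeup and quality. For Egr1 they were C1h16orf54 (0.92), Zfp217 (0.92), Mob3a (0.89), Myadm (0.88) and Pak2 (0.88). For Fos they were Rhob (0.83), Elf2 (0.83), Wdr33 (0.82), Zfp36 (0.81) and U2surp (0.76), of which Rhob, a small GTPase, and Zfp36, an RNA-binding decay factor, are early response genes themselves. Zfp36 (0.84) was also among those of Junb, behind Ifitm1 (0.85).

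Jun was most similar to Atf2 (0.81), Fosb to Dusp2 (0.75) and Jund (0.74), and Maff to Sdc4 (0.84) and Cflar (0.81). Ier2 was most similar to Anxa2 (0.94), a calcium-dependent membrane-binding protein, and Ier3 to Olr1 (0.77), Slpi (0.75) and Saa3 (0.73). Fosl1 (Hlf, 0.73) and Egr2 (Ywhag, 0.64) were dim, and their closest genes were less alike. Among the members the closest pairs over the arrays were Junb and Ier2 (r = 0.82), Egr1 and Fos (0.74) and Egr1 and Ier2 (0.68), and Egr1 had an r of -0.12 with Jun and of -0.23 with Maff. With group means taken out, so that only the 2 arrays within a group are compared, the closest pairs were Fos and Jun (0.90), Junb and Ier2 (0.86) and Fos and Junb (0.85). Egr1 then had an r of 0.17 with Jun and of 0.44 with Maff. These are descriptions over 24 arrays, with no test.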

How the data were processed

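RNA of blood mononuclear cells from 24 female Wistar rats, 2 in each of 12 groups, was hybridised to an Affymetrix rat genome array after Ficoll separation, extraction of all samples together and 3' biotin labelling. The deposited values are log2 levels from RMA in the affy package per the labels, with versions not given in the sources used here, while the methods of the study also name MAS5 and detection calls. They spanned 2.18 to 15.02 with medians of 5.49 to 5.58 per array, as RMA values do. RMA shrinks differences between dim probe sets, and the number of arrays limits precision.

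Of 31099 probe sets 20832 carried 1 gene symbol in the platform annotation, 436 several and 9831 none. Removing 57 controls and requiring a value over the 40th percentile in 2 or more arrays left 20690 for testing. The model was limma 3.58.1 under R 4.3.3 (lmFit, eBayes), fitted to all arrays with a mean for each group and 12 residual degrees of freedom. It gave 20 comparisons of 2 groups, 4 tests of whether an arm and NOCIA changed differently by 34 days, and 1 F test. Adjusted p-values are Benjamini-Hochberg over all probe sets within a comparison. The code was tested on simulated data.

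List genes were read on their brightest probe set, and marker levels are means of values centred per gene. The text could name the 10 members on every probe set, list genes that were called or passed the thresholds of the study's methods, up to 4 examples of a list, and the 5 genes most correlated with each member. The members and lists were chosen with earlier results of these data known. Motifs were searched in RefSeq windows of GRCr8 with Python 3.11.15 and pandas 2.3.3, and plots were drawn with matplotlib 3.10.9. Alternatives were a replicate block, a fit limited to the groups at hand, filters set stricter or left out, quantile normalization, median-centred arrays, limma-trend with robust eBayes, array weights, leaving out each array, and leaving out the 4 arrays that stood apart.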

Additional observations from a re-analysis of the deposited data

Results flagged for a closer look

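Jun stood out because its 34-day change in ANE differed from that in NOCIA by a test of the difference itself. The difference was -3.43 on the main probe set (adjusted p = 0.0190) and -3.06 on the dimmest (0.0226) in limma. With single arrays left out in turn, both calls were kept only without NOCIA 34-day rep 2. In MS, MTX and PLA the difference on the main probe set had the same direction and was not called. All arms share the baseline and NOCIA 34-day arrays, so these differences are not independent. Jun was not called between ANE and PLA at 34 days, and ANE was not compared with MS or MTX.

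At 1 h some changes ran in opposite directions in every array of an arm and of NOCIA, each against its own baseline, and these differences were not tested. The share of all probe sets that did so was not computed. Taken singly, 1 h and baseline arrays did not overlap for 36.5% of all probe sets in NOCIA, 40.2% in MTX, 54.7% in ANE and 52.0% in PLA. For MTX minus NOCIA the difference was -1.59 for Jun on its main probe set, -1.12 for Jun on its dimmest probe set and 0.61 for Junb. For Junb it was 1.35 in ANE minus NOCIA and 0.88 in PLA minus NOCIA.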

How the results depend on the processing

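The 88 member differences followed were those at an unadjusted p under 0.05 in the main fit. They kept their direction under all 1198 alternative values computed. Many of these values could not reverse. The block, the filters, limma-trend, array weights and a fit of only the groups compared leave a difference of group means as it was. The count is therefore no measure of robustness. Same-numbered arrays did not deviate together (correlation from -0.756 to 0.805, median -0.00596, 25 of 66 group pairs over 0.1), so the numbers were not taken to pair samples. With the replicate block the calls were 5 in NOCIA at 34 days, 2 in MS at 34 days, 2 in the ANE difference and 2 in the F test, as without it, and 0 elsewhere.

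Calls of the 13 probe sets moved both with how the spread was modelled and with single arrays. With array weights there were 4 for CIA against NOCIA at baseline, 0 for MS, 3 for MTX and 5 for PLA at 34 days, 1 for MTX at 1 h, 1 for ANE against PLA and 2 for NOCIA at 34 days against 1 h. Calls over all probe sets moved with array weights too. They rose from 1 to 1020 for CIA against NOCIA and from 3 to 117 for MTX at 1 h. At 34 days they rose from 0 to 1010 for MTX and from 0 to 1723 for PLA, and fell from 1439 to 0 for MS. In a fit of only the groups compared there were 4 for CIA against NOCIA, 0 for MS, 2 for PLA and 8 for NOCIA at 34 days and 1 for NOCIA at 1 h. Over all probe sets that fit called 759 for CIA against NOCIA, 0 for MS, 130 for PLA and 6995 for NOCIA at 34 days. Without the 4 arrays that stood apart there were 2 for ANE at 1 h, 1 for NOCIA at 1 h, and 2 each for ANE and for NOCIA at 34 days against 1 h. For the differences from NOCIA, array weights, leaving out the 4 arrays and fitting only those groups gave 3, 2 and 3 in MTX, 5, 5 and 5 in ANE and 4, 4 and 4 in PLA. Over all probe sets the calls of these differences reached up to 1846 in MTX, 4841 in ANE and 3397 in PLA under the alternatives. In the main fit they were 5, 592 and 2. For MS at 34 days no filter gave 1 and quantile normalization 3 (Egr1, Fos and Egr2). Leaving out the 4 arrays leaves a single MS 34-day array, rep 2, the lowest of all for Egr2. The F test called 1 without the filter, 1 with centred arrays, 1 with limma-trend, 8 with array weights, and leaving out the 4 arrays gave 8. The cause of these changes was not tested.

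With 1 array left out, where the lone array is assumed to vary like the other groups, calls ran from 0 to 5 in MS and from 1 to 4 in NOCIA at 34 days, 0 to 3 in MS at 1 h, 0 to 6 in MS against PLA, 0 to 4 in MS against MTX, 0 to 1 in ANE and in NOCIA at 34 days against 1 h, 0 to 6 in the MS difference, 0 to 2 in the ANE difference and 0 to 7 in the F test. They were 0 to 0 in every other comparison. Over all probe sets, 1439 calls in MS at 34 days became 0 with array weights or only the groups compared and 150 without the 4 arrays. The 2478 in NOCIA became 7109, 6995 and 6298, and the 592 of the ANE difference 4841, 4308 and 3793, or 1042 after quantile normalization. Egr2, Fosl1 and Maff are dim, so their changes may be understated.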
